A study of Mus musculus with 13 samples.

Results

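Aminoacyl-tRNA synthetases are the enzymes that join each amino acid to its transfer RNA, and their messenger RNAs were followed here in the gastrocnemius muscle of obese mice. The genes were taken by symbol: a single amino-acid letter followed by ars, with or without a closing digit, together with Eprs, Farsa, Farsb and Tarsl2. By this rule 38 of the 21868 genes of the table were synthetase genes, of which 17, with symbols that end in ars2, encode mitochondrial enzymes and 21 were counted as cytosolic. All 38 had a mean of at least 10 normalized counts over the 13 mice and entered the tests with 12303 genes in all. The samples came from male C57BL/6 mice (C57BL/6N in the study's legends for the RNA-seq counts) that were 7 weeks old at entry, acclimatized for 1 week, made obese on a diet with 60 kcal% fat for 15 to 17 weeks and then returned to standard chow, a switch that all 3 groups shared. Treatment lasted 3 weeks. The vehicle group (labelled Vehicle+placebo, n = 5, mice 1 to 5) received phosphate-buffered saline, and the semaglutide group (labelled Semaglutide+placebo, n = 5, mice 13 to 17) received this agonist of the glucagon-like peptide-1 receptor intraperitoneally at 30 nM/kg each day. The semaglutide + ketone ester group (n = 3, mice 19, 21 and 22) received the same dose of semaglutide and an ester that raises circulating ketone bodies at 0.114 g/mL in the drinking water. Each library was made from gastrocnemius tissue, not sorted by cell type, of a separate mouse.

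Every amino acid used in protein synthesis needs its own synthetase, and a cell with mitochondria needs separate charging systems for the cytosol and for the mitochondrial matrix, where the few proteins encoded by mitochondrial DNA are made. All of these enzymes are encoded in the nucleus. The cytosolic enzymes load the transfer RNAs that serve the bulk of translation, which in skeletal muscle includes the contractile proteins, and several of them are known targets of the transcription factor ATF4 in the response to amino acid shortage. The enzymes fall into a class I and a class II by the fold of the active site, and a group of cytosolic enzymes is held in a multi-tRNA synthetase complex. The division by symbol has exceptions that are known from the genes: Gars and Kars each encode both the cytosolic and the mitochondrial enzyme, Eprs encodes a fused enzyme for glutamic acid and proline, and Farsa and Farsb encode the subunits of the cytosolic phenylalanine enzyme. No mitochondrial gene for glutamine is in the list, because mitochondria make glutaminyl-tRNA through an amidotransferase.

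The libraries held between 15319471 and 23498162 reads on genes, and all carried the same batch date in the labels. Semaglutide-treated mouse 13 stood apart from the other 4 semaglutide-treated mice in many of the genes below, so that the counts and medians that rest on it are given with and without it. Markers of muscle fibres (Acta1, Ckm, Myh1, Myh2, Myh4, Tnnt3 and Mylpf) were present in every library and were by far the most abundant marker list. Their summed normalized count was between 2365091 and 2851690 in vehicle-treated mice, between 1451642 and 2056446 in semaglutide-treated mice 14 to 17, 2597925 in mouse 13, and between 2999156 and 3593561 in semaglutide + ketone ester-treated mice. Of the 7 fibre markers, 2 were lower under semaglutide than under vehicle, where 13.2% of all genes tested were lower, and 4 were higher with the ketone ester than under semaglutide alone, where 9.09% of all genes were higher. Among the other lists, 3 of 4 fibroblast markers and 2 of 3 tendon markers were lower under semaglutide. With the ketone ester 4 of 5 erythroid, 2 of 4 fibroblast and 1 of 4 endothelial markers were higher than under semaglutide, and of the 3 tendon markers 1 was higher and 1 lower. No slow-fibre, adipocyte, leukocyte, Schwann cell or satellite cell marker was called in either comparison, and the markers of cycling cells did not pass the filter on low counts. No marker was at 0 in all mice. The part of these shifts in the synthetase values was not tested. In unsorted muscle tissue fewer cells of a type cannot be told apart from less RNA per cell.

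In vehicle-treated mice the cytosolic genes were the more abundant list. Divided by the length of their annotated exons, the 21 cytosolic genes had a median level of 365 normalized counts per kilobase and the 17 mitochondrial genes a median of 76.8. Kars, the lysine enzyme, was highest with 884 ± 43.9 normalized counts per kilobase (SD, n = 5), followed by Eprs with 881 ± 39.7 and Nars, the asparagine enzyme, with 728 ± 30.8. The ranges of Kars and Eprs overlapped, whereas the range of Nars lay below both. Tars, the cytosolic threonine enzyme, was the lowest of the cytosolic list with 199 ± 12.6 and ranked just above Iars2, the highest mitochondrial gene, with 197 ± 8.86, and the ranges of these neighbours overlapped. The lowest mitochondrial levels were those of Wars2 with 28.0 ± 3.33, Nars2 with 24.5 ± 3.24, Pars2 with 19.4 ± 1.88 and Mars2 with 16.9 ± 2.81 (SD, n = 5). The rank of Mars2 rests on its annotated exon length of 11294 bases. Before division by length its vehicle mean was 191 normalized counts, above those of Wars2 (124), Nars2 (102) and Pars2 (59.1). Of the 37 pairs of neighbours in this order, 31 had overlapping ranges, so that most adjacent ranks were not separated by the spread between mice. Tarsl2, a further cytosolic threonine enzyme, ranked 4 among all 38 genes with 502 ± 20.8 normalized counts per kilobase, well above the level of Tars.

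**Figure D1:**
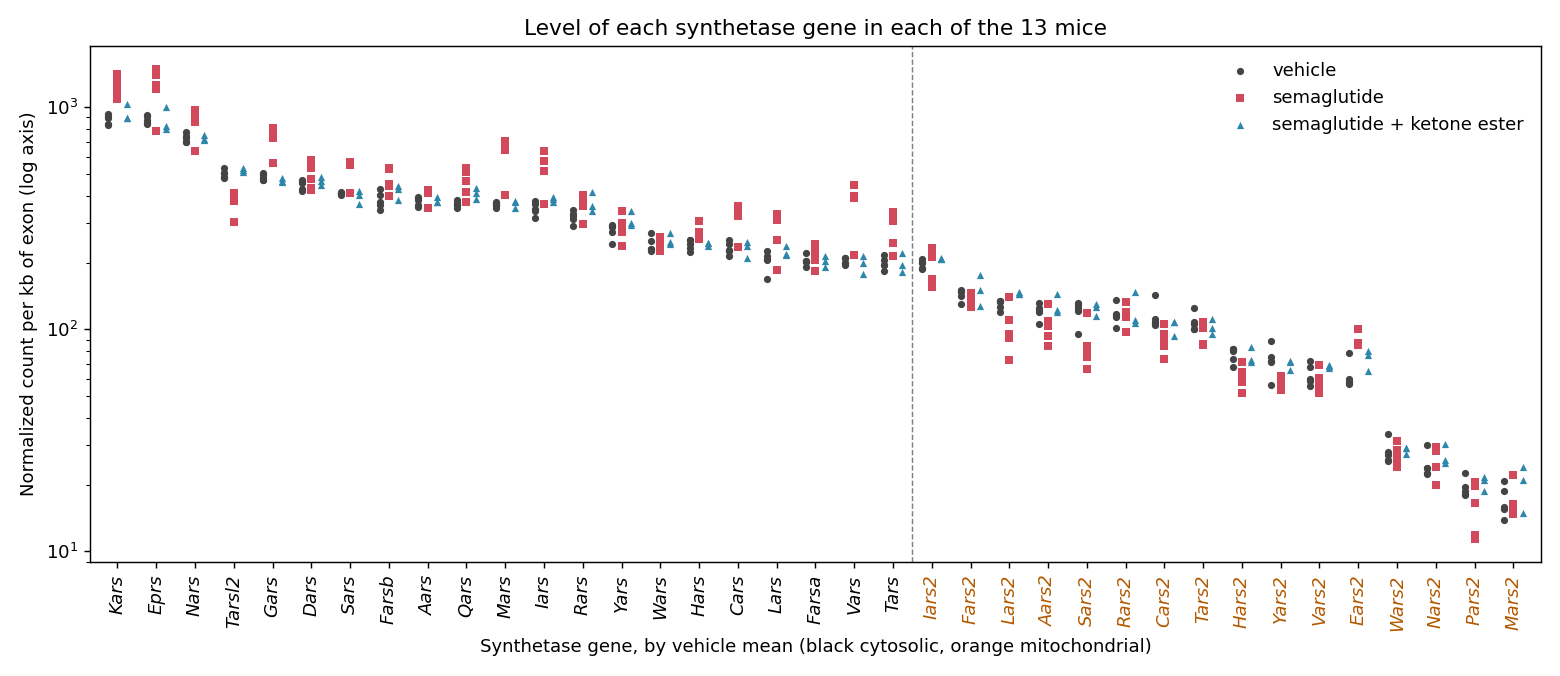
Normalized count per kilobase of annotated exon (log axis) for 37 of the 38 synthetase genes, ordered by the vehicle mean, with 1 point for each of the 13 mice and 1 marker shape for each treatment group. The cytosolic genes (black names) lie to the left of the dashed line and the mitochondrial genes (orange names) to its right, with vehicle means from 884 for Kars down to 16.9 for Mars2.

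The first question was how semaglutide alone affected the genes. Among the cytosolic synthetase genes called higher in semaglutide-treated muscle, the largest fold changes were those of Vars, Mars, Iars and Gars, the enzymes for valine, methionine, isoleucine and glycine. By limma on log2(normalized count + 1), with p-values adjusted over all genes tested and a threshold of 0.05, 12 of 21 cytosolic genes were higher than in vehicle-treated mice, where 11.9% of all genes tested were higher, and 1 was lower, against 13.2% of all genes. The other 8 were not called. The median log2 fold change of the 21 genes was 0.32, against -0.00287 for all genes. Without mouse 13 the number higher was 14, against 17.3% of all genes, and the median 0.39. Without any other single mouse it was between 8 and 10, and it was 8 when genes with low counts were kept in the table.

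Vars was at 863, 821, 808, 825 and 867 normalized counts in the 5 vehicle-treated mice, at 891 in semaglutide-treated mouse 13 and at 1617, 1613, 1650 and 1845 in mice 14 to 17. All semaglutide-treated mice were above all vehicle-treated mice, with mouse 13 only just above them, and the mean was 1.82 times the vehicle mean (log2 fold change 0.82, SE 0.16, limma adjusted p = 0.0046). Mars was at 1073, 1097, 1043, 1080 and 1111 normalized counts under vehicle and at 1194, 1903, 2092, 1965 and 1949 in semaglutide-treated mice 13 to 17, again without overlap (log2 fold change 0.73, SE 0.13, limma adjusted p = 0.0028). Methionine is the first amino acid of nearly every cytosolic protein, and Mars charges both the initiator and the elongator transfer RNA. Gars was at 1147, 1206, 1119, 1117 and 1184 normalized counts under vehicle and at 1334, 1726, 1926, 1851 and 1869 under semaglutide. The groups did not overlap for Gars either (log2 fold change 0.58, SE 0.10, limma adjusted p = 0.0019).

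Iars was at 1402, 1675, 1503, 1631 and 1546 normalized counts under vehicle and at 1628, 2297, 2806, 2542 and 2538 under semaglutide, a log2 fold change of 0.59 (SE 0.13, limma adjusted p = 0.0073). Mouse 13 lay inside the vehicle range and the other 4 lay above it. Kars, which supplies both compartments, was at 2055, 2020.1, 1876, 1886 and 2089.9 normalized counts under vehicle and at 2602, 2988, 2844, 2453 and 3161 under semaglutide, with no overlap and with mouse 13 among the raised mice (log2 fold change 0.50, SE 0.09, limma adjusted p = 0.0022). Threonyl-tRNA synthetase (Tars) was at 869.7, 819.8, 783, 734 and 780.1 normalized counts under vehicle and at 854, 976, 1307, 1228 and 1346 under semaglutide (log2 fold change 0.50, SE 0.13, limma adjusted p = 0.0151). For Cars, the cysteine enzyme, the vehicle values were 728, 780.1, 734, 691 and 813 normalized counts and the semaglutide values 755, 1046, 1159, 1162 and 1129 (log2 fold change 0.47, SE 0.12, limma adjusted p = 0.0142). In both genes mouse 13 fell within the vehicle range and the other 4 semaglutide-treated mice lay above it.

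Eprs was at 4285, 4498, 4119, 4159 and 4550.1 normalized counts under vehicle and at 6195, 6879, 5935 and 7269 in semaglutide-treated mice 14 to 17, while mouse 13, with 3837, was below every vehicle-treated mouse. The fold change of Eprs passed the threshold by little (log2 fold change 0.45, SE 0.15, limma adjusted p = 0.0473), and its call was lost when any mouse other than mouse 13 was left out. Sars, the cytosolic serine enzyme, was at 1498, 1494, 1464, 1482 and 1518 normalized counts under vehicle and at 1491, 1994, 2075, 2029 and 2024 under semaglutide, with mouse 13 at the vehicle level (log2 fold change 0.36, SE 0.09, limma adjusted p = 0.0175). The other genes called higher were Qars for glutamine (0.32), Farsb for phenylalanine (0.29) and Hars for histidine (0.23 on the log2 scale). Farsa, the partner subunit of Farsb in the same enzyme, had a log2 fold change of 0.06 (SE 0.09, adjusted p = 0.638) and was not called. The calls of Eprs, Qars, Farsb and Hars were also lost when genes with low counts were kept in the table, which raised the number of genes tested to 16885, and those of Hars, Farsb and Qars were lost without 11, 10 and 8 of the 13 mice taken singly.

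Tarsl2 was the only cytosolic gene that fell. It was at 1543, 1701, 1617, 1540.1 and 1615 normalized counts under vehicle and at 1315, 1284, 1204, 976 and 1276 under semaglutide, with no overlap and with mouse 13 among the lowered mice (log2 fold change -0.41, SE 0.09, limma adjusted p = 0.0061). The 2 cytosolic threonine genes thus moved in opposite directions under semaglutide, with Tars raised by 0.50 and Tarsl2 lowered by 0.41 on the log2 scale.

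The 8 cytosolic genes that were not called had log2 fold changes from 0.02 to 0.43. Lars, the leucine enzyme, was nearest the threshold (log2 fold change 0.43, SE 0.15, adjusted p = 0.0554), and it passed without mouse 13 (0.57, adjusted p = 0.0017), as did Nars (0.23, and 0.33 without mouse 13). Rars for arginine had a log2 fold change of 0.17, Dars for aspartic acid 0.11, Aars for alanine 0.09, Farsa 0.06, Yars for tyrosine 0.05 and Wars for tryptophan 0.02. Within the multi-tRNA synthetase complex (Lars, Iars, Mars, Rars, Qars, Kars, Dars and Eprs) 5 of 8 genes were higher, with a median log2 fold change of 0.44, and among the 13 free enzymes 7 were higher and 1 lower, with a median of 0.23. The ranges of these lists ran from 0.11 to 0.73 and from -0.41 to 0.82, so that both held genes of large and of small difference. By class, 5 of 9 class I genes were higher (median 0.43) and 6 of 11 class II genes were higher and 1 lower (median 0.23). For all these sub-lists the shares of all genes were 11.9% higher and 13.2% lower, and the sub-lists were not tested against each other. Eprs carries an active site of each class and was counted in neither.

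The letters TGATGNAA, the composite C/EBP-ATF response element through which ATF4 is known to act, were searched on both strands of the RefSeq promoters (GRCm38.p6, 250 bases before to 50 bases after the start of transcription). Of the 38 synthetase genes, 28 had a promoter in that table, 14 in each list. Vars, Cars and Hars, which were called higher under semaglutide, had none, and neither did Lars, Nars, Rars and Wars. Letters and calls were therefore not compared over the whole cytosolic list. The element was in 5 of 14 cytosolic promoters, in 0 of 14 mitochondrial promoters and in 4.51% of the promoters of all 27025 genes of the table. The matches are shown because all 5 genes were cytosolic. Of these, Gars, Iars and Tars were raised under semaglutide, while Aars and Yars, with the same letters, were not called. Whether the letters went with the calls was not tested. For each gene the match nearest the start is given. Each window is 30 bases on the strand of the gene, 5′ to 3′, with the match in capitals (TGATGNAA or its reverse complement).
Aars: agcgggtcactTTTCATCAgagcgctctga
Gars: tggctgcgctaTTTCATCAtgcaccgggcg
Iars: cactgtcagtaTTGCATCAcctccagacgc
Tars: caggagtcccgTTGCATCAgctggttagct
Yars: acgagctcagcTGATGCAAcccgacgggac
The windows are at chr8:111033840-111033869 (plus strand) for Aars, chr6:55037960-55037989 (plus) for Gars, chr13:49682126-49682155 (plus) for Iars, chr15:11399655-11399684 (minus) for Tars and chr4:129189895-129189924 (plus) for Yars. By the GENCODE M21 annotation the Gars window lies outside any gene, and the other 4 overlap an exon of their own gene. Relative to the RefSeq start the match began at base 10 in Aars, -30 in Gars, 8 in Iars, -15 in Tars and 4 in Yars. The E-box CACGTG was in 4 of 14 cytosolic promoters (Aars, Farsb, Iars and Tars), in 1 of 14 mitochondrial promoters (Ears2) and in 8.09% of all. The NRF1 letters CGCANGCG were in 6 of 14 cytosolic and 4 of 14 mitochondrial promoters, against 9.22% of all. The 6 were Farsa and 5 genes called higher under semaglutide, Farsb, Gars, Kars, Mars and Tars. Most cytosolic genes with a promoter were called higher, and Eprs, Iars, Qars and Sars were so without these letters. A match of letters does not show that a factor was bound in these muscles.

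Most mitochondrial genes were not called in this comparison. Under semaglutide 1 of 17 was higher than under vehicle and 5 were lower, against 11.9% and 13.2% of all genes tested, and 11 were not called. The median log2 fold change was -0.16, and this direction depended on the scaling, since with each library rescaled to an equal total the median was 0.0092 and none of the 17 was lower. Under that rescaling the median of all genes itself moved to 0.17 and 3261 genes were higher and 926 lower, in place of 1459 and 1625, and 18 cytosolic genes were higher. Without mouse 13 the number of mitochondrial genes lower was 7, against 18.8% of all genes. It was 0 without vehicle-treated mouse 4, where 9.55% of all genes were lower. Without any other single mouse of either group it was between 1 and 3, where 9.11% to 11.6% of all genes were lower.

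Sars2, the mitochondrial serine enzyme, had the largest decrease. Its normalized counts were 233, 244, 178, 239 and 227 under vehicle and 222, 157, 151, 141 and 124 in semaglutide-treated mice 13 to 17, so that 4 of 5 lay below all vehicle-treated mice and mouse 13 did not (log2 fold change -0.52, SE 0.14, limma adjusted p = 0.0223). Cars2, for cysteine, was at 205, 212, 198, 270.5 and 204 normalized counts under vehicle and at 200.2, 181, 171, 160.2 and 139 under semaglutide. With vehicle-treated mouse 4 well above the rest and mouse 13 inside the vehicle range, its log2 fold change was -0.35 (SE 0.11, limma adjusted p = 0.0417). Yars2, for tyrosine, was at 278, 177, 226, 236 and 224 normalized counts under vehicle and at 187, 168, 193, 171 and 172 under semaglutide (log2 fold change -0.34, SE 0.11, limma adjusted p = 0.0346), and the ranges overlapped through vehicle-treated mouse 2.

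Hars2, for histidine, was at 268, 271, 245, 272 and 226 normalized counts under vehicle and at 239, 215, 203, 193 and 172 under semaglutide (log2 fold change -0.33, SE 0.10, limma adjusted p = 0.0309). Lars2, the mitochondrial leucine enzyme, was at 521, 465, 521, 493.4 and 517 under vehicle and at 544, 428, 370.0, 284 and 356 under semaglutide, with mouse 13 above and the other 4 below every vehicle-treated mouse, and was not called (log2 fold change -0.38, SE 0.14, limma adjusted p = 0.0664). All 5 decreases lost their call with equal totals, those of Cars2 and Yars2 also with quantile normalization, and those of Cars2, Yars2 and Hars2 also without the filter. The call of Sars2 was lost without mouse 2, 4 or 17, while those of Cars2, Yars2 and Hars2 were lost without 11, 7 and 6 of the 13 mice taken singly.

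Ears2, which charges the mitochondrial transfer RNA for glutamic acid, and by misacylation that for glutamine, was the only mitochondrial gene called higher. It was at 117, 123, 159.6, 119.8 and 116 normalized counts under vehicle and at 178, 175, 178, 174 and 206 in semaglutide-treated mice 13 to 17. All 5 semaglutide-treated mice, mouse 13 included, lay above all vehicle-treated mice (log2 fold change 0.52, SE 0.10, limma adjusted p = 0.0045), and the call held in all 8 other settings tried and without any single mouse. Its mean under semaglutide was 1.43 times the vehicle mean. The remaining mitochondrial genes had log2 fold changes from -0.31 for Pars2 and -0.23 for Aars2, through -0.16 for Tars2, -0.11 for Vars2, -0.08 for Fars2, -0.04 for Wars2, -0.01 for Iars2 and -0.0047 for Mars2, to 0.03 for Rars2 and 0.08 for Nars2. Of the mitochondrial class I genes 1 of 9 was higher and 2 were lower, and of the class II genes 3 of 8 were lower. The shares of all genes were 11.9% higher and 13.2% lower.

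**Figure D2:**
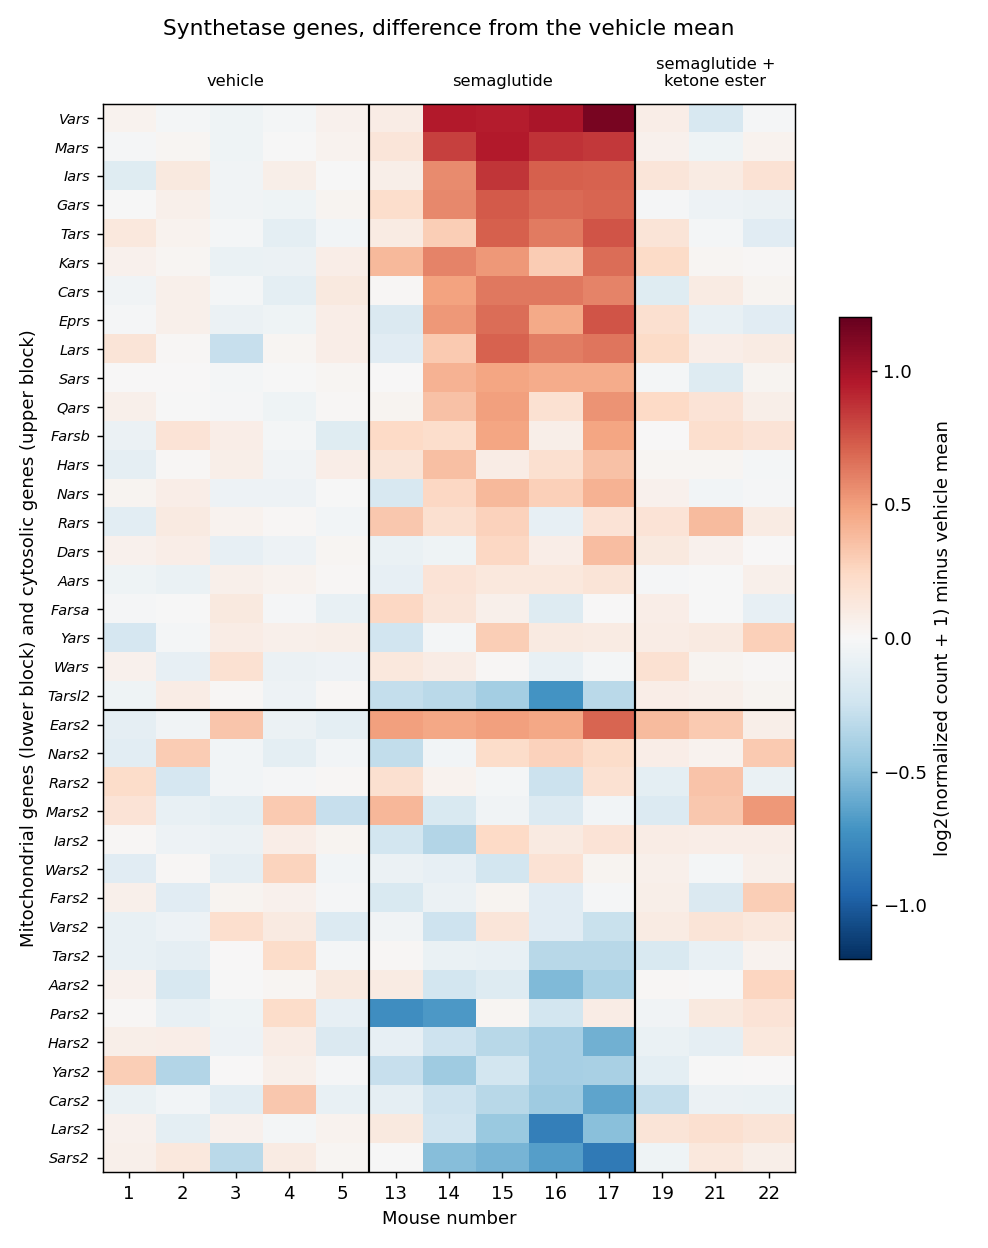
Colour gives log2(normalized count + 1) minus the vehicle mean of the same gene, for 37 of the 38 synthetase genes (rows, cytosolic above and mitochondrial below the horizontal line, each ordered by the semaglutide minus vehicle difference) in each of the 13 mice (columns). Semaglutide-treated mice 14 to 17 are red for most cytosolic genes, mouse 13 is near white for many of them (0.09 for Vars, where the other 4 are higher), and Tarsl2 and Ears2 stand against their lists.

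Mouse 13 was within the vehicle range for 5 of the 12 cytosolic genes called higher and for 4 of the 5 mitochondrial genes called lower. Called or not, it was so for 8 of 21 cytosolic and 9 of 17 mitochondrial genes. The share of all genes for which it was so is not given here. The semaglutide and vehicle groups did not overlap in 6 of 21 cytosolic and 2 of 17 mitochondrial genes, against 14.7% of all genes tested. Without mouse 13 these numbers were 15 and 6, against 29.4% of all genes. In Kars, Tarsl2 and Ears2 mouse 13 lay with the other semaglutide-treated mice.

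The lists were then set against each other within each mouse, as the mean over a list of the log2 difference of each gene from its vehicle mean. This measure has no test here, and the difference between the lists does not depend on how a library is scaled. For the 21 cytosolic genes it was 0.05 in semaglutide-treated mouse 13 and 0.33, 0.44, 0.30 and 0.45 in mice 14 to 17, a mean of 0.31 ± 0.16 (SD, n = 5), with an SD of 0.02 (n = 5) among vehicle-treated mice. For the 17 mitochondrial genes it was -0.05 in mouse 13 and -0.20, -0.09, -0.24 and -0.16 in mice 14 to 17, a mean of -0.15 ± 0.08 (SD, n = 5) on the deposited scale and near 0 with equal totals, as for the median above. The cytosolic minus the mitochondrial mean was 0.10 in mouse 13 and 0.53, 0.53, 0.54 and 0.61 in mice 14 to 17, against a range of -0.13 to 0.10 in vehicle-treated mice. Mice 14 to 17 were thus alike in this difference (0.56 ± 0.04, SD, n = 4) and well outside the vehicle range, while mouse 13 was just above the highest vehicle-treated mouse. With equal totals the mean difference was 0.465, against 0.464 on the deposited scale.

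In summed normalized counts the cytosolic genes held 26689 ± 569 under vehicle (SD, n = 5), 34349 ± 4552 under semaglutide (SD, n = 5; 36220 ± 2073 without mouse 13, n = 4) and 27507 ± 1018 with the ketone ester (SD, n = 3). The mitochondrial genes held 5280 ± 241, 4822 ± 295 and 5521 ± 214 in the same order, with 4754 ± 290 under semaglutide without mouse 13. The cytosolic share of all synthetase counts was 83.5% ± 0.871 under vehicle, 84.1% in mouse 13, between 88.0% and 88.8% in mice 14 to 17, and 83.3% ± 0.986 with the ketone ester.

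**Figure D3:**
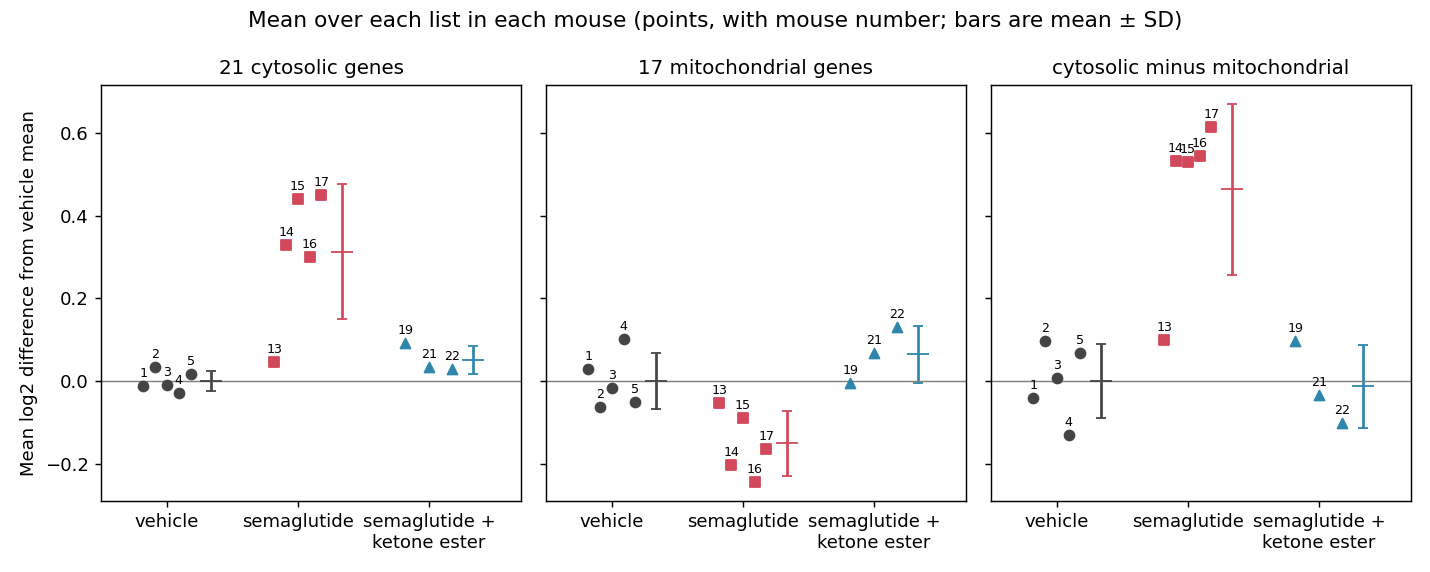
Mean log2 difference from the vehicle mean over the 21 cytosolic genes (left), over the 17 mitochondrial genes (middle) and the difference between these means (right), with 1 point for each mouse, labelled by its number, and bars for the group mean ± SD (n = 5, 5 and 3). The right panel does not depend on the scaling of a library, and there semaglutide-treated mice 14 to 17 lie at 0.53 to 0.61 and every other mouse between -0.13 and 0.10.

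Pairing each mitochondrial gene with the cytosolic gene for the same amino acid gave 17 ratios, with Farsa standing for phenylalanine, Tars for threonine, and Eprs for both glutamic acid and proline. The cytosolic-to-mitochondrial ratio was higher under semaglutide than under vehicle in 16 of the 17 pairs, with a median difference of 0.56 on the log2 scale. The exception was Eprs to Ears2, with a difference of -0.08. Vars to Vars2 differed most, by 0.93, followed by Sars to Sars2 with 0.87, Cars to Cars2 with 0.82 and Lars to Lars2 with 0.80. All semaglutide-treated mice, mouse 13 included, were above all vehicle-treated mice in 3 pairs, those for histidine (0.56), isoleucine (0.60) and proline (0.75). Without mouse 13 the ratio was higher in all 17 pairs, with a median difference of 0.64, and the groups were apart in 12. The share over other pairs of genes is not given here. Among single genes, those without overlap in either direction rose from 14.7% to 29.4% of all tested when mouse 13 was left out. The rise from 3 to 12 pairs is therefore not read as a result about the synthetases. The smallest differences in favour of the cytosolic gene were those for tryptophan (0.06) and phenylalanine (0.14 with Farsa and 0.37 with Farsb), arginine (0.14) and asparagine (0.15).

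**Figure D4:**
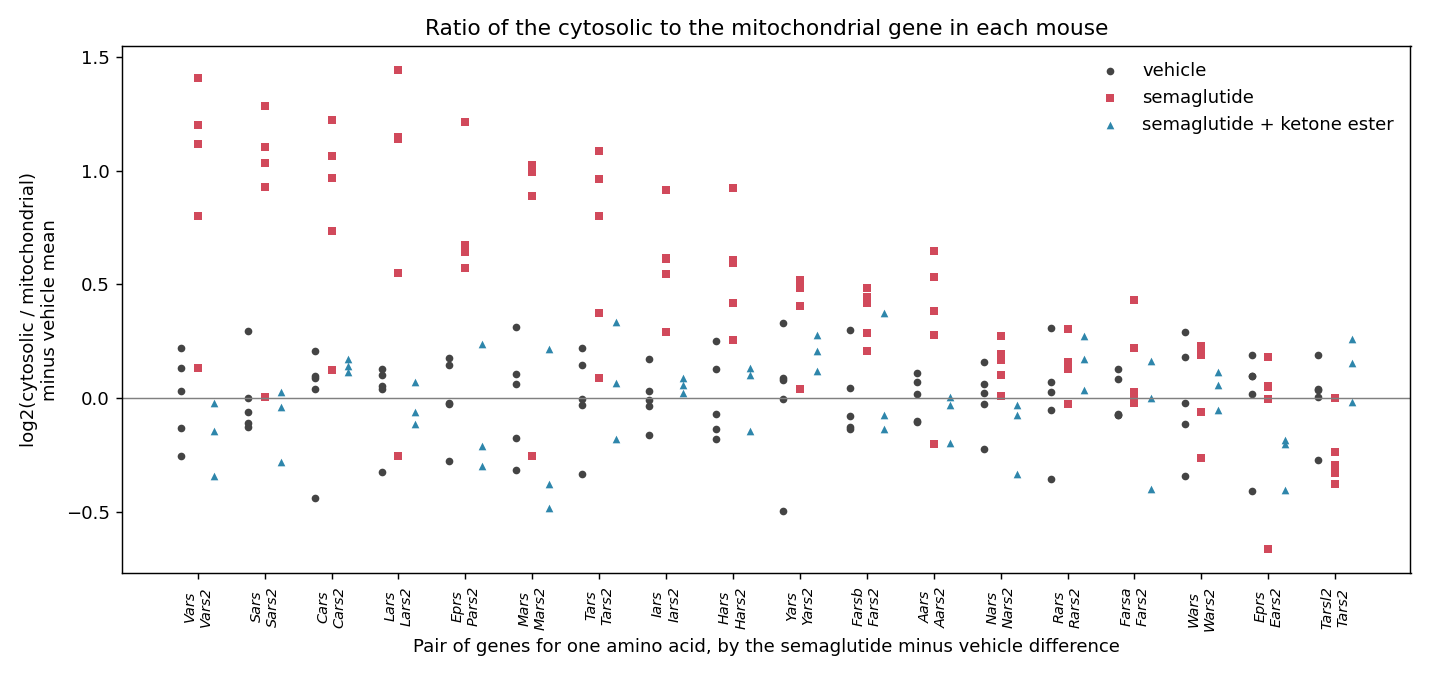
The log2 ratio of each cytosolic gene to the mitochondrial gene for the same amino acid, minus the vehicle mean of that ratio, with 1 point for each of the 13 mice and the pairs ordered by the semaglutide minus vehicle difference, 1 of the 17 pairs being left out and Farsb and Tarsl2 shown as well. Differences run from 0.93 for Vars to Vars2 down to -0.08 for Eprs to Ears2 and -0.25 for Tarsl2 to Tars2, and the lowest semaglutide point of many pairs lies among the vehicle points.

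The second question was what the ketone ester added to semaglutide did. The same semaglutide-treated mice served as the reference here, so that opposite signs to the first comparison are favoured by the design alone. By limma 7 of 21 cytosolic genes were lower with the ketone ester than under semaglutide alone, against 9.30% of all genes tested, 1 was higher, against 9.09%, and 13 were not called. The median log2 fold change of the 21 was -0.23, against -0.000243 for all genes. The 7 were Vars, Mars, Gars, Tars, Cars, Kars and Sars. Without mouse 13 the number lower was 11, against 16.2% of all genes. It was 2 without semaglutide + ketone ester-treated mouse 21, where 3.71% of all genes were lower, and 3 without mouse 22, where 3.43% were. The number was 4 without semaglutide-treated mouse 15 or 17, where 6.55% and 6.14% of all genes were lower.

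With the ketone ester Vars was at 885, 733 and 827 normalized counts in mice 19, 21 and 22, below all semaglutide-treated mice (log2 fold change -0.86, SE 0.19, limma adjusted p = 0.01002). Mars was at 1123, 1042 and 1110.4 normalized counts, also below all of them (log2 fold change -0.71, SE 0.15, limma adjusted p = 0.0090). Gars was at 1145, 1109 and 1099.6 normalized counts, within 1 narrow band and below every semaglutide-treated mouse (log2 fold change -0.63, SE 0.11, limma adjusted p = 0.0041). Kars, at 2327, 2018 and 2002, did not overlap with the semaglutide group either (log2 fold change -0.41, SE 0.10, limma adjusted p = 0.0170).

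Tars was at 888, 783 and 726 normalized counts (log2 fold change -0.50, SE 0.15, limma adjusted p = 0.0346), Cars at 677, 799.6 and 764 (log2 fold change -0.48, SE 0.14, limma adjusted p = 0.0316) and Sars at 1465, 1343 and 1525 (log2 fold change -0.40, SE 0.11, limma adjusted p = 0.0241). For each of these genes mouse 13 lay among the semaglutide + ketone ester-treated mice while mice 14 to 17 lay above them. Iars was at 1715, 1661 and 1743 (log2 fold change -0.45, SE 0.15, adjusted p = 0.0543) and Eprs at 4938, 4059.8 and 3934 (log2 fold change -0.46, SE 0.17, adjusted p = 0.0850), and neither was called. The calls of Gars and Mars held in all 8 other settings and without any single mouse, that of Vars was lost without mouse 21, that of Kars without mouse 21 or 22, and those of Tars, Cars and Sars without 5, 7 and 5 of the 13 mice taken singly. Those of Tars and Cars were lost with quantile normalization and without the filter as well.

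Tarsl2 was the cytosolic gene called higher. It was at 1694, 1671 and 1636 normalized counts with the ketone ester, above all semaglutide-treated mice (log2 fold change 0.47, SE 0.10, limma adjusted p = 0.0090), and this call too held in every setting and without any single mouse. Its SD over the 3 mice was 29.6 normalized counts, against 138 over the 5 semaglutide-treated mice.

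Among the mitochondrial genes 2 of 17 were higher with the ketone ester than under semaglutide and 0 were lower, against 9.09% and 9.30% of all genes. The median log2 fold change was 0.23, which became -0.0043 with equal totals, where the median of all genes was -0.24 and the numbers of genes higher and lower were 610 and 3585 in place of 1118 and 1144. Sars2 was at 215, 244 and 234 normalized counts (log2 fold change 0.56, SE 0.17, limma adjusted p = 0.0347), above semaglutide-treated mice 14 to 17 and overlapping with mouse 13. Lars2 was at 559.9, 576 and 561, above all semaglutide-treated and all vehicle-treated mice (log2 fold change 0.55, SE 0.16, limma adjusted p = 0.0343). Both calls were lost with equal totals and without the filter. The number higher was 5 without mouse 13 (Aars2, Hars2, Lars2 and Sars2 among them, against 15.9% of all genes). It was 1 without mouse 14 or 16, where 7.52% and 8.31% of all genes were higher. Without any single one of mice 15, 17, 19, 21 and 22 it was 0, where 3.58% to 6.80% of all genes were higher.

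Ears2 was at 164, 157 and 132 normalized counts with the ketone ester, below all semaglutide-treated mice, but the difference was not called (log2 fold change -0.27, SE 0.12, limma adjusted p = 0.133). Yars2, at 208, 225 and 227, lay above all semaglutide-treated mice and was not called either (limma adjusted p = 0.104). Cars2 was at 177, 205 and 204, and Hars2 at 242, 237 and 279, and both overlapped with the semaglutide group. The ketone ester and semaglutide groups did not overlap in 6 of 21 cytosolic and 4 of 17 mitochondrial genes, against 20.1% of all genes tested, and in 14 and 7 without mouse 13, against 36.5% of all genes. The cytosolic-to-mitochondrial ratio was lower with the ketone ester than under semaglutide in 16 of 17 pairs, with a median difference of -0.53 on the log2 scale, and all 3 mice were below all 5 semaglutide-treated mice in 5 pairs. The pair that was not lower was Rars to Rars2, with a difference of 0.02. With mouse 13 left out, the ratio was lower in 15 pairs, with a median difference of -0.60, and in 14 all 3 mice were below the other 4 semaglutide-treated mice. The share over other pairs of genes is not given here, and the share of single genes without overlap also rose, from 20.1% to 36.5%. The rise from 5 to 14 pairs is therefore not read as a result about the synthetases.

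**Figure D5:**
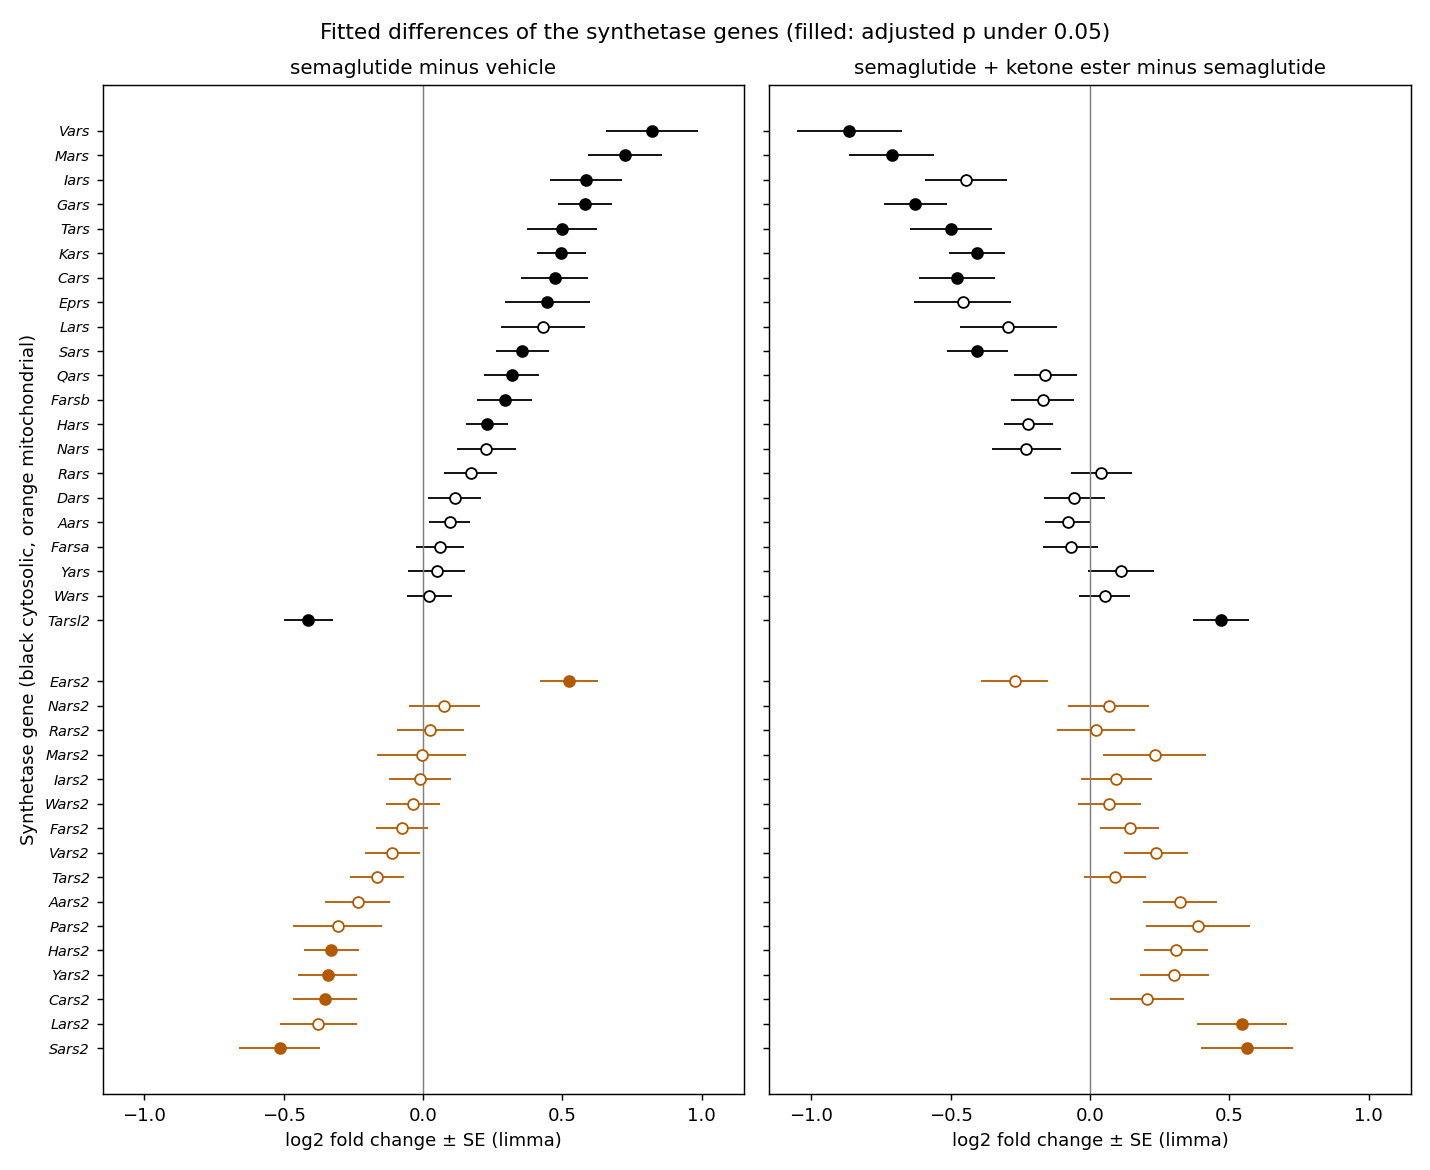
Limma log2 fold changes with their standard errors for 37 of the 38 synthetase genes (black cytosolic, orange mitochondrial), semaglutide minus vehicle on the left and semaglutide + ketone ester minus semaglutide on the right, with filled points for an adjusted p under 0.05. On the left 12 cytosolic points are filled to the right of 0 and Tarsl2 to its left, and on the right 7 are filled to the left of 0 and Tarsl2 to its right. The panels share the semaglutide-treated mice, and with equal totals no mitochondrial gene is lower on the left or higher on the right.

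The third comparison set semaglutide + ketone ester-treated mice against vehicle-treated mice, which share no mouse. None of the 38 synthetase genes was called by limma, 0 of 21 cytosolic and 0 of 17 mitochondrial, against 0.0732% of all genes higher and 0.163% lower, so that a count of 0 is close to the background. At an unadjusted p under 0.05 the numbers were also 0 and 0, while 1289 of all genes tested had such a p, and edgeR and DESeq2 on the recovered reads likewise called 0 and 0. The log2 fold changes ran from -0.05 to 0.21 in the cytosolic list, with a median of 0.02, and from -0.15 to 0.25 in the mitochondrial list, with a median of 0.07, against -0.00593 for all genes. Vars differed by -0.04 (SE 0.19), Mars by 0.01 (SE 0.15), Gars by -0.05 (SE 0.11) and Tarsl2 by 0.06 (SE 0.10). The largest difference was that of Ears2 (0.25, SE 0.12, limma adjusted p = 0.492). The groups did not overlap in 1 cytosolic gene, Qars, and in 1 mitochondrial gene, Lars2, against 11.3% of all genes tested. The cytosolic minus the mitochondrial mean was 0.10, -0.03 and -0.10 in mice 19, 21 and 22, all inside the vehicle range, with a mean of -0.01 ± 0.10 (SD, n = 3). With standard errors of 0.08 to 0.19 in this comparison, a small difference could not have been seen.

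The study's methods name a one-way analysis of variance with limits on the p and on the fold change. Read here as an unadjusted p under 0.05 on the normalized counts and a span of 1.5-fold or more between the highest and the lowest group mean, which the methods do not spell out, this criterion found 4 of 21 cytosolic and 0 of 17 mitochondrial genes altered across the 3 groups, against 16.1% of all genes. The 4 were Vars, Mars, Gars and Iars, whose highest group means were 1.87, 1.68, 1.56 and 1.52 times the lowest. The 8 remaining cytosolic genes that limma called higher fell short of the 1.5-fold limit rather than of the p. Without mouse 13 the criterion was met by 7 cytosolic and 2 mitochondrial genes. The share of all genes that met it there is not given here, so that this rise is not read as a result about the synthetases.

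Genes that work beside the synthetases were read from the same fit. Under semaglutide their counts are to be read against 11.9% of all genes higher and 13.2% lower. With the ketone ester these shares were 9.09% and 9.30%. Without mouse 13 the shares of all genes were 17.3% higher and 18.8% lower under semaglutide, and 15.9% and 16.2% with the ketone ester. With equal totals they were 26.5% and 7.52% under semaglutide, and 4.95% and 29.1% with the ketone ester. Of the scaffold proteins of the multi-tRNA synthetase complex, none of Aimp1, Aimp2 and Eef1e1 was called between semaglutide and vehicle. Aimp2 was at 1803 ± 213 normalized counts under vehicle, 1487 ± 819 under semaglutide and 2532 ± 209 with the ketone ester, and was higher with the ketone ester than under semaglutide (log2 fold change 0.90, SE 0.28, limma adjusted p = 0.0450). Its SD among semaglutide-treated mice was large beside its mean, and without mouse 13, which was above the vehicle mean by 0.71 on the log2 scale, Aimp2 was lower under semaglutide (-0.68, SE 0.10, limma adjusted p = 0.00054). With equal totals it was called in neither comparison, whereas Aimp1 and Eef1e1 were higher under semaglutide and lower with the ketone ester than under semaglutide. Of 6 genes that clear mischarged or stalled transfer RNA (Aarsd1, Dtd1, Dtd2, Prorsd1 and Ptrh2 among them) and of 4 that make and use selenocysteinyl-tRNA (Pstk, Sepsecs, Secisbp2 and Eefsec), 0 were called in either comparison. With equal totals Ptrh2 and Secisbp2 were higher under semaglutide and Secisbp2 lower with the ketone ester, and without mouse 13 Prorsd1 was lower under semaglutide and 2 of the first list were higher with the ketone ester. Of the 4 genes that finish mitochondrial charging, 1 was lower under semaglutide and 2 were higher with the ketone ester than under semaglutide. Qrsl1, the catalytic subunit of the amidotransferase that makes mitochondrial glutaminyl-tRNA from the product of Ears2, was the one called lower. It was at 318 ± 22.2 normalized counts under vehicle and 208 ± 47.6 under semaglutide (log2 fold change -0.63, SE 0.13, limma adjusted p = 0.0065). It was higher with the ketone ester (310 ± 37.0, log2 fold change 0.59, SE 0.16, limma adjusted p = 0.0220), as was Gatb, its tRNA-binding partner (0.37, SE 0.11, limma adjusted p = 0.0358). The same calls were made without mouse 13, and with equal totals that of Qrsl1 under semaglutide remained (-0.46) and those with the ketone ester were lost.

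Factors of mitochondrial translation were lower in 5 of 10 tested under semaglutide (Mtif2, Tsfm, Gfm1, Gfm2 and Mtrf1l), against 13.2% of all genes. The median log2 fold change of the 10 was -0.33. With the ketone ester 5 were higher than under semaglutide (Mtif2, Tufm, Gfm1, Gfm2 and Guf1), against 9.09% of all genes. These numbers were 6 and 7 without mouse 13, against 18.8% of all genes lower and 15.9% higher. With equal totals 1 was lower under semaglutide, Gfm1, against 7.52% of all genes. There 2 were higher with the ketone ester, Mtif2 and Gfm1, against 4.95%. Gfm1, an elongation factor, was at 2107 ± 163, 1509 ± 132 and 2326 ± 313 normalized counts in the 3 groups (semaglutide against vehicle, log2 fold change -0.48, SE 0.10, limma adjusted p = 0.0044). Of 28 genes of the integrated stress response, 25 passed the filter on low counts, and Slc7a11, Fgf21 and Gdf15 did not. Of the 25, 4 were higher under semaglutide, a share near that of all genes, and 0 lower, with a median log2 fold change of 0.25, and 5 were lower and 1 higher with the ketone ester than under semaglutide. When mouse 13 was left out, 8 were higher and 1 lower under semaglutide, against 17.3% and 18.8% of all genes. With the ketone ester 8 were then lower and 1 higher, against 16.2% and 15.9%. With equal totals 6 were higher and 0 lower under semaglutide, against 26.5% and 7.52% of all genes. There 8 were lower and 0 higher with the ketone ester, against 29.1% and 4.95%. Under this setting 6 of 25 and 8 of 25 were near the shares of all genes. Atf4, the transcription factor of this response, was at 2708 ± 224, 4056 ± 753 and 2474 ± 209 normalized counts in the 3 groups (semaglutide against vehicle, log2 fold change 0.56, SE 0.13, limma adjusted p = 0.0085), with a log2 fold change of 0.68 without mouse 13, which itself was at 0.11. The other 3 called higher were Eif4ebp1, Slc3a2 and Ppp1r15a. Eif4ebp1, a repressor of translation initiation, had a log2 fold change of 2.48 (SE 0.42), or 2.97 without mouse 13, which was at 0.50. Slc3a2, the shared chain of several amino acid transporters, had 0.49 (SE 0.09). Ppp1r15a, a phosphatase subunit that reverses the response, had 0.90 (SE 0.29). Asns, a classical target of ATF4, was at 26.0 ± 9.15, 42.5 ± 29.1 and 22.5 ± 11.9 normalized counts (semaglutide against vehicle, log2 fold change 0.56, SE 0.42, limma adjusted p = 0.347), and Trib3, at 23.9 ± 7.25 and 28.4 ± 15.9 under vehicle and semaglutide, was not called either.

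Some members share their place in the genome with other genes, and the program that counted reads, and whether it used the strand, are not given in the sources used here. Mars (GRCm38, chr10:127296221-127311786, minus strand) overlaps Ddit3 on the opposite strand. Ddit3, a stress-induced transcription factor, was at 148 ± 13.6 normalized counts under vehicle and 150 ± 68.9 under semaglutide, far below Mars and with no call (log2 fold change -0.10, SE 0.25, limma adjusted p = 0.804). Hars and Hars2 lie head to head on chromosome 18 and their annotations overlap by 198 bases, and their log2 fold changes had opposite signs (0.23 and -0.33). Ears2 (chr7:122037213-122067263, minus strand) overlaps Ubfd1, and Cars2 (chr8:11513977-11550783, minus strand) overlaps Naxd, each on the opposite strand. On the same strand, the annotated span of Tarsl2 (chr7:65644898-65692091, plus strand) overlaps that of Tm2d3, and that of Aars overlaps Exosc6. Use of the strand would not separate reads of such pairs, and their part in the Tarsl2 and Aars values was not tested. Kars has a pseudogene by name, Kars-ps1, that could take or give reads.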

How the data were processed

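RNA from the gastrocnemius of 13 mice was sequenced by the authors as paired-end stranded mRNA libraries and aligned to mm10 with DRAGEN. The authors deposited 1 table of normalized counts per gene (unit: signal, in column-wise scaled counts), and the submitters' processing notes also name DESeq2. The counting program and the annotation are not given in the sources used here. In each mouse all deposited values were multiples of what 1 read was worth (100% whole within a tolerance of 0.01 reads), so that reads were recovered. Between 15319471 and 23498162 reads per mouse were counted on genes, and precision is limited by the spread between mice and, for genes with low counts, by counting error, which were not separated here.

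From this table log2(normalized count + 1) was calculated for genes with a mean of at least 10, and all 3 groups were fitted together with limma 3.58.1 (R 4.3.3, variance trend off) with Benjamini-Hochberg adjustment over all 12303 genes and a threshold of 0.05, two-sided. Fold changes on this scale understate those of genes with low counts. Values in every mouse are given for genes called in either comparison that holds the semaglutide group, at most the 10 cytosolic and 8 mitochondrial genes of largest change under semaglutide. A few items are counted in the lists but not reported here by name. Members, gene lists, motifs and tests were chosen with earlier results of these data known. Levels per kilobase used the union of exons of GENCODE M21 (GRCm38, the build of mm10), and promoters were taken from RefSeq. The alternatives were equal column totals, quantile normalization, edgeR 4.0.16 and DESeq2 1.42.0 on the recovered reads, a pseudocount of 10, no filter, sample weights, the omission of each mouse in turn and, added after the data were seen, a variance trend and, for the lists beside the synthetases, equal totals and the omission of mouse 13. The fits were tested on simulated data.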

Additional observations from a re-analysis of the deposited data

Results flagged for a closer look

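In groups of 5 mice a value was marked when its gap to the nearest other mouse took up more of the group's range than Dixon's limit allows, which chance does in about 1 in 20 groups. Of 40 groups examined, 9 held such a mouse, 5 of them mouse 13. The groups came from the same mice, and the list means contain the genes examined singly. The 9 are therefore not independent and are not to be weighed against the rate of 1 in 20. Semaglutide-treated mouse 13 lay below the other 4 semaglutide-treated mice in the cytosolic minus mitochondrial mean (0.0991 on the log2 scale, relative to vehicle), in Vars (0.0905), Mars (0.1444), Cars (0.0144) and Sars (0.0001). For Ears2, semaglutide-treated mouse 17 was above the other 4 (0.7026) and vehicle-treated mouse 3 above the other vehicle-treated mice (0.3375). Vehicle-treated mouse 3 was low in Sars2 (-0.3228), and vehicle-treated mouse 4 was high in Cars2 (0.3214).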

How the results depend on the processing

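Of 458 values of 23 list results under other settings, 415 stayed within 1.5 times (counts) or within 1 pooled SD between mice (medians and means) of the value reported, 41 moved further and 2 medians changed sign from beyond 1 SD. A further 5 values, of 2 results between semaglutide + ketone ester and vehicle, changed sign within 0.0467 of 0. Cytosolic genes higher under semaglutide were between 8 and 14 when 1 mouse was left out, with 14 without mouse 13, and 8 without a filter and 18 with equal totals. With equal totals the mitochondrial median log2 fold change became 0.0092 (semaglutide against vehicle) and -0.0043 (semaglutide + ketone ester against semaglutide), mitochondrial genes lower under semaglutide became 0, those higher with the ketone ester 0 and those lower 1, cytosolic genes lower with the ketone ester 15, the cytosolic medians 0.4922 and -0.4655, and the genes altered across the groups 10 cytosolic and 1 mitochondrial. With sample weights, where mouse 13 had the lowest weight, the cytosolic medians were 0.4258 and -0.3371, cytosolic genes lower with the ketone ester 12 and mitochondrial genes higher 5. Quantile normalization left 3 mitochondrial genes lower under semaglutide, and without a filter 2 were lower and 0 were higher with the ketone ester. Leaving out 1 mouse at a time gave between 2 and 11 cytosolic genes lower with the ketone ester (11 without mouse 13, 4 without mouse 15 or 17, 3 without mouse 22 and 2 without mouse 21), between 0 and 7 mitochondrial genes lower under semaglutide, between 0 and 5 mitochondrial genes higher with the ketone ester, and between 3 and 7 cytosolic and 0 and 2 mitochondrial genes altered across the groups, with the mitochondrial number at 1 without vehicle-treated mouse 3 or semaglutide + ketone ester-treated mouse 19 and 2 without mouse 13. The shares of all genes altered across the groups in these settings are not given here. Rescaling by construction moves every gene of a mouse alike, and the other causes were not tested. Of the 19 genes called between semaglutide and vehicle 10 kept their call under every alternative and omission (Cars, Ears2, Gars, Iars, Kars, Mars, Sars, Tars, Tarsl2 and Vars), and of the 10 called between semaglutide + ketone ester and semaglutide 3 did (Gars, Mars and Tarsl2), with no call reversed. For all genes, called numbers moved by over 1.5 times with equal totals (3261 higher and 926 lower under semaglutide, 610 and 3585 with the ketone ester), with sample weights (2383 and 2464, and 2060 and 2219), without mouse 17 (945 and 1122, and 744 and 756) and, with the ketone ester against semaglutide, without mouse 13 (1961 and 1993), mouse 21 (516 and 456) or mouse 22 (440 and 422). Between semaglutide + ketone ester and vehicle 9 genes were higher and 20 lower, and over all settings between 1 and 84 were higher and between 0 and 121 lower (68 and 104 by DESeq2, 84 and 121 with weights, 2 and 2 unfiltered). No paired analysis was possible because the labels give no numbers shared between groups.

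With 3 mice given the ketone ester, a single mouse decided several calls. Muscle fibre content cannot be told apart from expression per fibre in unsorted muscle tissue, and RNA quality values were not used here.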
